A study of Mus musculus with 2 samples.

Results

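The miR-148 and miR-152 family of the mouse was described in embryonic lung through its 3 genes, Mir148a, Mir148b and Mir152. They were taken from a deposited table of 1973 microRNA genes by the Ensembl identifiers that GENCODE M21 gives to these names, and all 3 were in the table. The samples were whole lungs of embryos at embryonic day 15.5 from the strain named B6NCrl in the labels, with no treatment stated. There were 2 libraries of 1 group, numbered as biological replicates. Replicate 1 was a pool of 78 embryos and replicate 2 a pool of 62 embryos, both of mixed sex and both under 1 donor identifier, so their spread reflects pools and libraries rather than single animals. With 1 group there is no comparison between conditions, and levels could be described within the lung only.

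MicroRNAs are short RNAs cut from hairpin precursors. They pair with messenger RNAs mainly through their seed, bases 2 to 8 counted from the 5′ end, and lower the output of those messengers. The miR-148 and miR-152 family is broadly conserved among vertebrates and is known for repressing Dnmt1, the methyltransferase that maintains DNA methylation, and, for miR-148a in liver, the low-density lipoprotein receptor. The genes of the family lie apart from each other in the genome, and their 3p arms are the products for which the family is named.

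The 3p arms are shown because they define the family and decide how well reads of its members can be told apart. They were taken from RefSeq on GRCm38.p6, with the seed in capitals.
miR-148a-3p: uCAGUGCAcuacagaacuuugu
miR-148b-3p: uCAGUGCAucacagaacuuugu
miR-152-3p: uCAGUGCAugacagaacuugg
All 3 arms carried the seed CAGUGCA. Of 1738 mature mouse microRNAs in the RefSeq table, 3 had that seed, and these were the family's own 3p arms. The arms of miR-148a and miR-148b matched at 20 of 22 positions and differed by the substitutions C9U and U10C, written from miR-148a to miR-148b with positions counted from the 5′ end. From miR-148a to miR-152 the substitutions were C9U, U10G and U20G over 21 positions, and from miR-148b to miR-152 they were C10G and U20G. The differences thus lay outside the seed, and a read of a full 3p arm carried at least 2 of them between any pair of members.

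The 5p arms, from the other side of each hairpin, were less alike and are shown for that contrast.
miR-148a-5p: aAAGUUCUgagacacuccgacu
miR-148b-5p: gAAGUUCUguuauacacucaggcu
miR-152-5p: uAGGUUCUgugauacacuccgacu
Those of miR-148a and miR-148b shared the seed AAGUUCU, whereas miR-152-5p had AGGUUCU. The deposited values count reads per precursor, so the reads of the arms were not separated and each level below is that of a hairpin.

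The whole precursors follow with the 5p and 3p arms in capitals, since these are the units that were counted.
Mir148a: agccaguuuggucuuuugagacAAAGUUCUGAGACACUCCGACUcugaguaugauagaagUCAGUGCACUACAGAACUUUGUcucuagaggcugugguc
Mir148b: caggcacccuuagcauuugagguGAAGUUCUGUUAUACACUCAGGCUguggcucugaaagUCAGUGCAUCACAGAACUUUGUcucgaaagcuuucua
Mir152: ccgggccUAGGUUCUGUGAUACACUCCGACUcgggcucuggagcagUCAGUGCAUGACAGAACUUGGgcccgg
The hairpins were 99, 97 and 73 nt long, and the stretch between the arms was 16 nt in Mir148a, 13 nt in Mir148b and 15 nt in Mir152. The precursor of Mir152 was richer in G and C, at 61.6%, than those of Mir148a (45.5%) and Mir148b (45.4%). The longest run that Mir148a and Mir148b shared with any other of 1894 precursors searched was 15 nt, with each other, and for Mir152 it was 13 nt. No member shared a run of 20 nt, which a full-length read would need to match exactly in more than 1 precursor. Reads mapped to several places, 31.4% of replicate 1 and 30.6% of replicate 2, stand on a summary line and were treated here as uncounted; whether any of them came from this family was not tested.

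Mir148a (ENSMUSG00000065505.1) lies on the minus strand at chr6:51269812-51269910 in mm10, outside any annotated gene, and the nearest protein-coding gene, Nfe2l3, is 162.8 kb away. Mir148b (ENSMUSG00000065560.1) lies on the plus strand at chr15:103285125-103285221, inside Copz1, and Mir152 (ENSMUSG00000065515.1) on the plus strand at chr11:96850393-96850465, inside Copz2. The hosts are paralogs that encode zeta subunits of the COPI coatomer, the coat of vesicles that return from the Golgi. Mir148b sits in intron 1 in 4 of 4 Copz1 transcripts that span it, 12411 bp from the start of the gene. Mir152 sits in intron 1 in 3 of 3 Copz2 transcripts that span it, 523 bp from the start of the gene. The messengers of the hosts were not measured in these small RNA libraries.

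The libraries held 5354530 reads on the annotated strand of microRNA genes in replicate 1 and 6489390 in replicate 2. A single count equalled 0.187 and 0.154 CPM, where CPM is counts per 1000000 gene counts of the library. Defining microRNAs of lung compartments were present. The miR-200 genes of epithelium took 3.17% ± 0.0326 of the counts and Mir126a of endothelium 6.80% ± 0.135 (SD, n = 2). The list of smooth muscle and mesenchyme took 8.65% ± 0.400 (SD, n = 2), mostly as Mir143, at 79294 of 86497 CPM. Multiciliated cells took 0.874% ± 0.0652, and neuroendocrine and basal epithelium 0.796% ± 0.0601 (SD, n = 2). Lists of other tissues took less, from 0.0139% ± 0.00404 for neural to 0.108% ± 0.0219 for cardiac and skeletal muscle (SD, n = 2). The share of the family itself, 0.0852% ± 0.00508 (SD, n = 2), lay within that range, although the lists differ in number of genes. Members of the neural and muscle lists that have near-identical copies, among them Mir124a-1 and Mir1a-1, may be undercounted. The leukocyte list, at 0.0707% ± 0.00259, is too low as well if the 7944 and 6422 reads opposite Mir142b in replicates 1 and 2 came from Mir142, which was not analysed here.

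All 3 members were detected, at 10 counts or more in both libraries, a mark reached by 18.1% of all genes in the table (357 of 1973). Mir148a had 2863 reads in replicate 1 and 3737 in replicate 2, or 535 and 576 CPM. Mir148b had 768 and 1053 reads, or 143 and 162 CPM. Mir152 had 741 and 975 reads, or 138 and 150 CPM. Mir148a stood far above the other members in both libraries, while the ranges of Mir148b and Mir152 overlapped. The 95% exact Poisson intervals of Mir148a were 515 to 555 CPM in replicate 1 and 558 to 595 CPM in replicate 2; they cover counting error only, here and below, since no molecular identifiers are recorded. In whole lung, fewer cells of a type and less RNA per cell cannot be told apart.

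**Figure D1:**
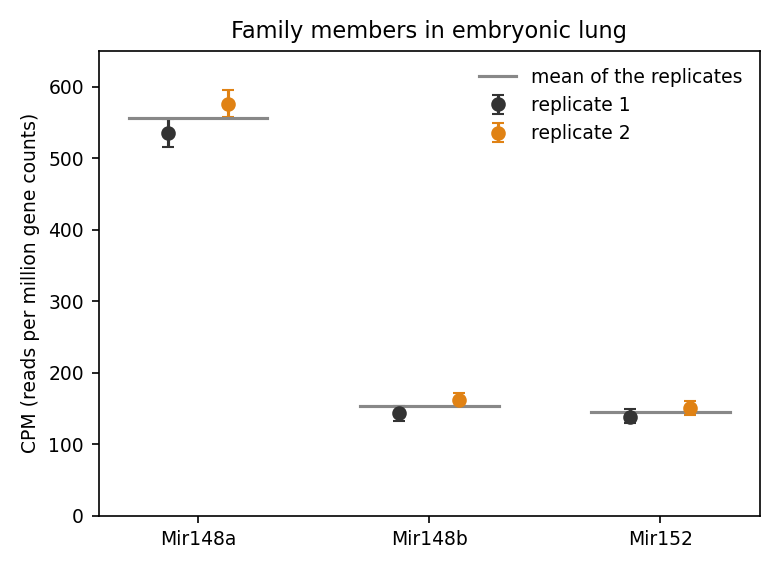
CPM of the 3 family members in each library; points are the replicates, vertical bars 95% exact Poisson intervals of the counts, and horizontal lines the means. Mir148a lies at 535 and 576 CPM, above Mir148b and Mir152, whose points lie between 138 and 162 CPM.

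The means were 555 ± 29.1 CPM for Mir148a, 153 ± 13.3 CPM for Mir148b and 144 ± 8.38 CPM for Mir152 (SD, n = 2). Mir148a exceeded Mir148b by 3.64-fold (log2 ratio within a library 1.86 ± 0.0502, SD, n = 2) and Mir152 by 3.85-fold (log2 ratio 1.94 ± 0.00819), and in both libraries the direction was the same. Mir148b was above Mir152 in both libraries by little, with a log2 ratio of 0.0813 ± 0.042 (SD, n = 2), and the difference of the means was below the SD of Mir148b and about that of Mir152. Their ratio was 1.04 in replicate 1, with a 95% exact binomial interval of 0.936 to 1.15, and 1.08 in replicate 2, with an interval of 0.989 to 1.18, so the counts of neither library set them apart. The exact 2-sided permutation test gave p = 0.333 for each comparison with Mir148a, the smallest that 2 values against 2 allow. For Mir148b against Mir152 the same permutation test gave p = 0.667. This test took the values as unpaired, although both genes of a pair were counted in the same libraries. Adjusted over the 3 pairs by Benjamini-Hochberg, these exact permutation values were 0.50, 0.50 and 0.667, so no pair could pass a threshold of 0.05. Reads of a microRNA cover its short product whole, so counts were not divided by precursor length, and a bias of library preparation for certain sequences would be shared by both libraries and would not show in the SD.

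Together the members held 4372 reads in replicate 1 and 5765 in replicate 2, or 0.0817% and 0.0888% of the counts, with 95% exact binomial intervals of 0.0792% to 0.0841% and 0.0866% to 0.0912%. Mir148a supplied 65.5% of the family's reads in replicate 1 and 64.8% in replicate 2, Mir148b 17.6% and 18.3%, and Mir152 16.9% in both. The make-up of the family was thus nearly the same in both pools, with SDs of 0.469 percentage points for Mir148a, 0.494 for Mir148b and 0.0257 for Mir152.

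By level, Mir148b and Mir152 lay in the middle of the detected microRNA genes and Mir148a above it. Mir148a ranked 114 of 357 by mean CPM, Mir148b 171 and Mir152 173. Set against the median detected gene, at 123 CPM, Mir148a was 4.52-fold higher, Mir148b 1.24-fold and Mir152 1.17-fold. Within 1 SD of its mean, Mir148a had 1 other detected gene, Mir148b had 5 and Mir152 had 3, so single ranks are not distinguishable.

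**Figure D2:**
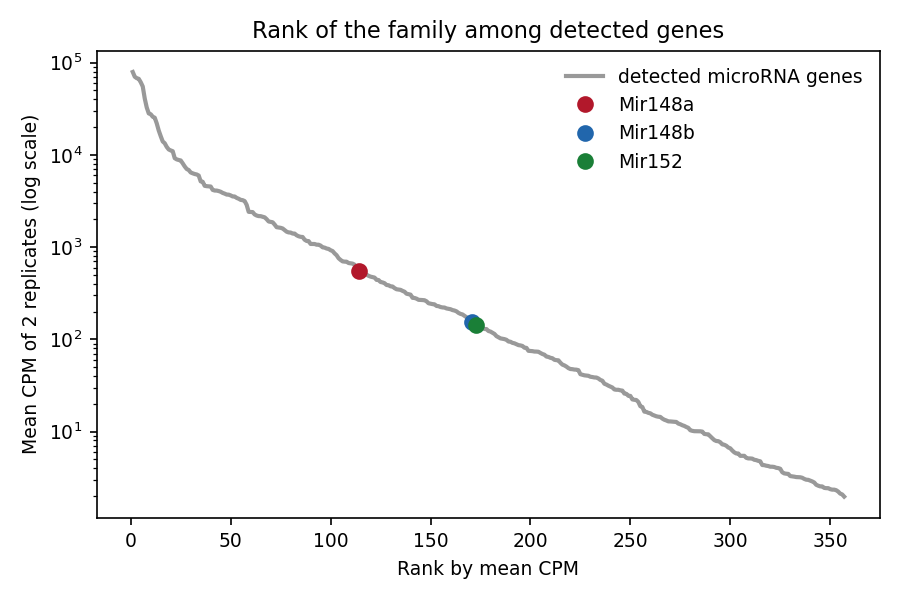
Mean CPM over the 2 replicates (log scale) of 357 detected microRNA genes against their rank; coloured points mark the family. Mir148a is at rank 114, and Mir148b and Mir152 are close together at ranks 171 and 173.

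To show genes of like level, the 2 detected genes ranked next above each member by mean CPM over the 2 libraries and the 2 next below it were named, each with the log2 ratio of mean CPM. These are neighbours in rank, and further genes on 1 side can be closer in level. Next above Mir148a were Mir106a (645 ± 50.5 CPM), a paralog of the Mir17 cluster genes, and Mir34c (589 ± 18.7 CPM), a microRNA of multiciliated cells. Next below it were Mir320 (539 ± 12.0 CPM), known to be made without Drosha, and Mir208b (524 ± 361 CPM), from an intron of the myosin gene Myh7. The log2 ratio of Mir148a over these 4 genes lay between -0.22 for Mir106a and 0.08 for Mir208b. Mir208b was like Mir148a in the mean alone, since its libraries held 269 and 780 CPM.

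Mir148b was flanked by Mir598 (163 ± 8.87 CPM) and Mir874 (163 ± 8.30 CPM) above it and by Mir574 (148 ± 1.59 CPM) and Mir152 below it. The log2 ratio of Mir148b over them ran from -0.09 for Mir598 to 0.08 for Mir152. Below Mir152 came Mir496a (141 ± 10.7 CPM), a gene of the imprinted cluster between Dlk1 and Dio3, and Mir137 (137 ± 41.1 CPM), a microRNA of neurons. Mir137 had 166 CPM in replicate 1 and 108 CPM in replicate 2 (SD, n = 2 for each gene named here), a wider spread than that of Mir152.

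The replicates were compared to see how steady each member was. Replicate 2 over replicate 1, the log2 ratio was 0.107 for Mir148a (95% exact binomial interval 0.0364 to 0.178), 0.178 for Mir148b (0.0424 to 0.314) and 0.119 for Mir152 (-0.0207 to 0.258). The interval lay above 0 for 2 of the 3 members, a mark met by 19.6% of the 357 detected genes, while 25.2% had an interval below 0. The ratio was smaller in size for 42.0% of detected genes than for Mir148a, for 59.9% than for Mir148b and for 45.4% than for Mir152, and the median detected gene differed by 1.10-fold. Each member therefore differed between the pools about as much as the typical detected gene. Among the marker lists, cardiac and skeletal muscle took 0.0929% of the counts in replicate 1 and 0.124% in replicate 2, erythroid genes 0.0684% and 0.0833%, the liver list 0.0526% and 0.0340%, and the neural list 0.0168% and 0.0111%. Within the muscle list Mir208b and Mir208a, both from introns of heart myosin genes, differed in opposite directions, with log2 ratios of replicate 2 over replicate 1 of 1.53 and -1.17. In the liver list the log2 ratio was -0.759 for Mir122 and 0.144 for Mir192 (95% exact binomial interval -0.0753 to 0.364). The neural list was nearly all Mir137, with 889 of 898 reads in replicate 1 and 700 of 718 in replicate 2. Mir9-3, of the same list, had 9 and 18 reads. The part of these lists in the members' ratios was not tested.

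**Figure D3:**
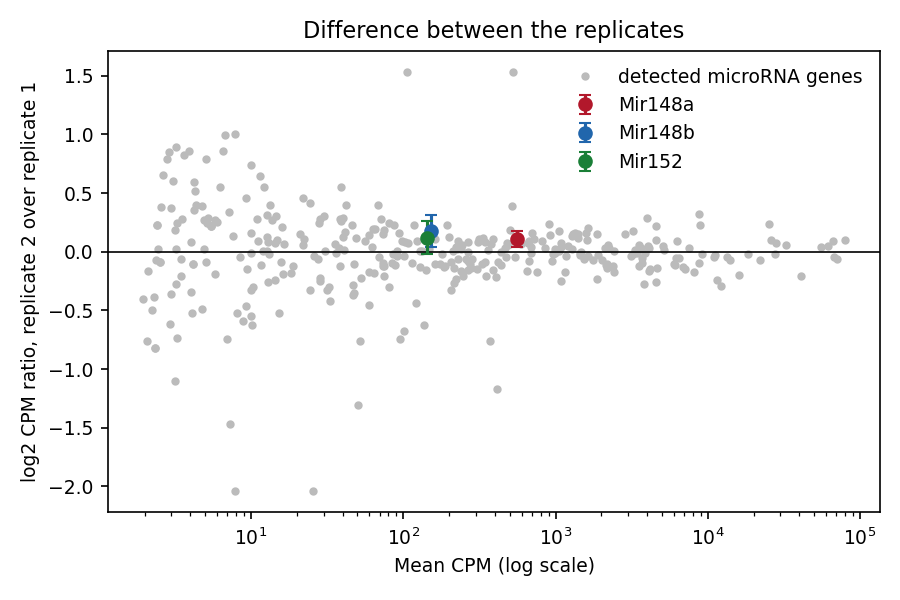
log2 ratio of CPM, replicate 2 over replicate 1, against mean CPM (log scale) for 357 detected genes; coloured points are the family with 95% exact binomial intervals. The members lie at 0.107, 0.178 and 0.119, within the cloud of genes of like level.

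The genes of the miR-130 and miR-301 family were set beside these members because their seed holds the same run AGUGCA, moved by a base. Their 3p arms are shown with the seed in capitals.
miR-130a-3p: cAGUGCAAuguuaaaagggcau
miR-130b-3p: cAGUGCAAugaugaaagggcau
miR-301a-3p: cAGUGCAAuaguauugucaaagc
The last 6 bases of the family's seed are the first 6 of theirs, so the seeds overlap and are not equal. Of the 1738 mature microRNAs, 12 held AGUGCA within bases 2 to 8. Besides the 3 members, 7 had the seed AGUGCAA, and the other 2, miR-350-5p and miR-291b-3p, had AAGUGCA. The RefSeq table held no 3p arm for Mir301b, so Mir301b, a relative by family name, is not among the 7. Of those 7, the arms of Mir6341, Mir6389 and Mir130c come from genes with 0 reads in both libraries, and Mir721 was not analysed here. The Mir350 gene had 1412 and 1642 reads in replicates 1 and 2, from either arm, and Mir291b had 7 and 2.

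Family members summed to 852 ± 50.8 CPM, against 30160 ± 3564 CPM for the 4 relatives in the table, Mir130a, Mir130b, Mir301 and Mir301b (SD, n = 2). As shares these were 0.0852% ± 0.00508 and 3.02% ± 0.356 of the counts, so the family was 35.3-fold lower (log2 ratio -5.14 ± 0.0848, SD, n = 2, lower in 2 of 2 libraries). The exact 2-sided permutation test, unpaired as above, gave p = 0.333, again the smallest possible. Most of the difference was Mir130a, a microRNA known from human endothelial cells, at 23231 CPM in replicate 1 and 27408 CPM in replicate 2. With Mir130a left out, a choice made after seeing the data, the family was 5.66-fold lower (log2 ratio -2.50 ± 0.0963, SD, n = 2).

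The levels of the families interleaved. Mir130b had 3582 and 4385 CPM and Mir301 had 791 and 842 CPM, all above Mir148a. Mir301b, with 36.4 and 44.5 CPM, was below all 3 members in both libraries. Each of these 4 relatives was detected. The longest run shared with another precursor was 17 nt for Mir130a and 16 nt for Mir130b, Mir301 and Mir301b.

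**Figure D4:**
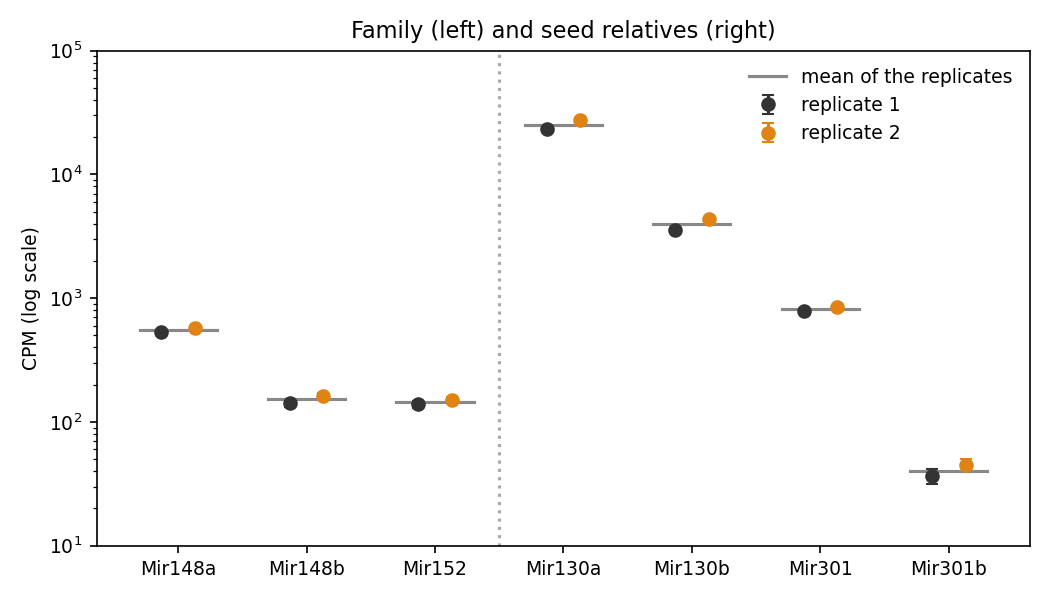
CPM (log scale) of the family, left of the dotted line, and of its seed relatives, right of it; points are the replicates with 95% exact Poisson intervals, and horizontal lines the means. Mir130a stands at 23231 and 27408 CPM, and Mir301b, at 36.4 and 44.5 CPM, is below each family member.

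Each member lies near a HOX cluster, the arrays of homeobox genes that pattern the body axis and hold microRNA genes of their own. The levels of the microRNAs in these clusters were set beside those of the nearby members. Of 16 microRNA genes in the table within 1 Mb of a member, 5 were detected, against 18.1% of all genes in the table. Each of the 5 belongs to a HOX cluster.

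Mir148a was higher than Mir196b, which lies 960.2 kb away in the HOXA cluster and targets HOX messengers such as Hoxb8. Mir148a had 535 and 576 CPM, against 87.4 and 82.0 CPM for Mir196b in replicates 1 and 2, a 6.56-fold difference (log2 ratio 2.71 ± 0.141, SD, n = 2). Mir148b was closer in level to Mir615, which lies 270.1 kb away in an intron of Hoxc5. Mir148b had 143 and 162 CPM, against 79.8 and 93.2 CPM for Mir615, a 1.77-fold difference (log2 ratio 0.82 ± 0.0335). Against the 25.6 and 30.4 CPM of the other HOXC neighbour, Mir196a-2, which lies 311.7 kb away, Mir148b was 5.47-fold higher (log2 ratio 2.45 ± 0.0486).

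Mir152 was far below its HOXB neighbour Mir10a, which lies 533.1 kb away. Mir152 had 138 and 150 CPM, against 32014 and 33265 CPM for Mir10a, so that Mir152 was 226-fold lower (log2 ratio -7.82 ± 0.0448, SD, n = 2). Mir152 had 741 and 975 reads, against 14 and 22 for Mir196a-1, 585.1 kb away, a 48.4-fold difference (log2 ratio 5.60 ± 0.181). Mir196a-1 and Mir196a-2 share a run of 22 nt, so their counts are too low by an unknown amount if such reads were set aside, and the folds against them are uncertain.

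**Figure D5:**
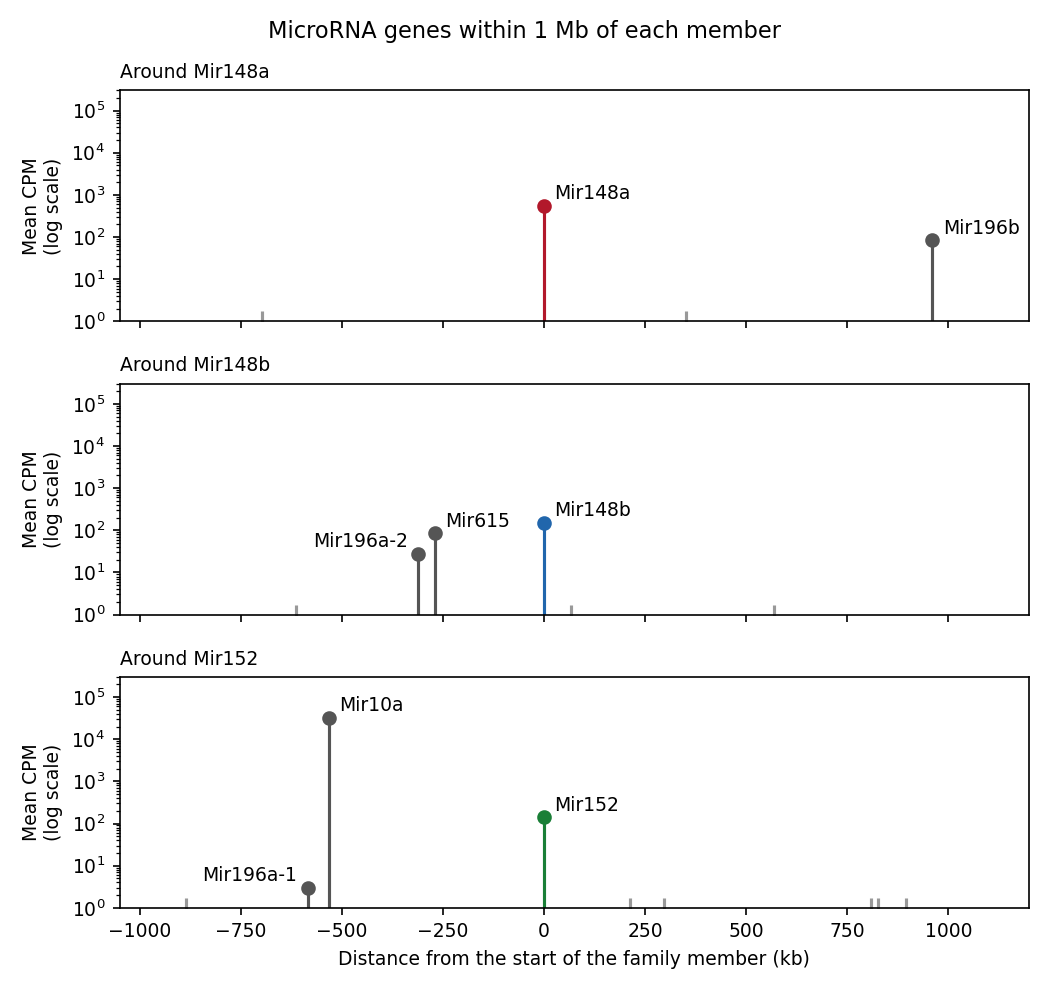
Mean CPM (log scale) of detected microRNA genes within 1 Mb of each family member, against distance in kb from the start of the member; ticks on the axis mark genes in the table with under 10 counts in a library. Mir10a, at 32640 CPM, stands above Mir152, while Mir196b, Mir615 and Mir196a-2 are lower than the member near them.

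The miR-29 genes, known for repressing the methyltransferases Dnmt3a and Dnmt3b, were described beside the family because Dnmt1 is its best known target. Family members took 0.0817% and 0.0888% of the counts in replicates 1 and 2, against 0.0190% and 0.0151% for the miR-29 genes. The family was 5.03-fold higher (log2 ratio 2.33 ± 0.320, SD, n = 2), with a ratio of 4.30 in replicate 1 and 5.89 in replicate 2. Mir29a had 140 and 103 CPM, close to Mir148b and Mir152 in replicate 1 and below both in replicate 2, and Mir29c had 49.3 and 45.9 CPM. Of the 4 miR-29 genes 2 were detected, and Mir29b-1 and Mir29b-2, with at most 6 reads in a library, share 25 nt with each other and may be undercounted. Mir29c shares 22 nt with Mir29b-1, so its count is uncertain too, and the 5.03-fold difference may be too large.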

How the data were processed

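Small RNA of embryonic mouse lung was sequenced as 2 libraries whose inserts were shorter than 30 nt, per the labels. What was deposited are raw counts of reads per microRNA gene that the authors made on mm10 with annotation M4, per the file headers in each library's readme. For the aligner and the counter, names and versions were not stated in the sources. Each table had 3 columns of counts (any strand, annotated strand, opposite strand, judged from totals) and 4 summary lines, which were kept out of library sizes. The annotated-strand column was used, and CPM was computed over all gene rows.

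The members, lists and rule for named genes were chosen with earlier results of these data known. Named were the members, the listed relatives, HOX and miR-29 genes, and the 2 detected genes next above and below each member. Also named were other carriers of the run AGUGCA, detected and some undetected neighbours within 1 Mb, and some genes of the marker lists. The highest gene was not named for every marker list. Of 1973 identifiers, 1894 matched GENCODE M21, which is on mm10 (GRCm38). Sequences came from RefSeq on GRCm38.p6, and shared runs were searched on both strands of GENCODE precursors; no genome was searched. Ratios had exact intervals, and both were tested on simulated counts that held counting error only, without spread between pools. Alternatives included TMM scaling (edgeR 4.0.16) and DESeq2 1.42.0 size factors, in R 4.3.3. Other steps used Python 3.11.15 with scipy 1.17.1, pandas 2.3.3, numpy 2.4.6 and, for figures, matplotlib 3.10.9.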

Additional observations from a re-analysis of the deposited data

How the results depend on the processing

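Of 107 recomputed values, 99 stayed within 1 SD (replicate ratios: their counting interval), kept the sign of a log2 ratio or, for ranks and counts of genes, stayed within 1.5-fold, and no log2 ratio changed sign. Ratios within a library do not depend on the total, by construction. Levels and shares without replicate 1 or 2 also stay within 1 SD by construction, as either of 2 values lies under 1 SD from their mean. The order of the members, with Mir148a first and Mir148b above Mir152, held without regard to strand and without replicate 1 or 2. So did the lower level of the family against its seed relatives. Strand could hardly matter there, because members and relatives each had at most 10 opposite-strand reads in a library. Without a replicate, each ratio is that of the other library alone. Levels under TMM and DESeq2 scaling stayed within the SD. Their means could hardly move, by construction, because both sets of factors are centred over the 2 libraries. Without 1 replicate, the log2 ratio of Mir148b over Mir152 ranged from 0.05 to 0.11 and that of the family over its relatives from -5.20 to -5.08. Levels moved by more than the SD with other totals. With Mir143 left out of the total, Mir148a was at 603 CPM, Mir152 at 157 CPM and the family at 0.0926% of counts. With all reads of the table as the total, Mir148a was at 264, Mir148b at 72.6 and Mir152 at 68.5 per 1000000 reads, and the family at 0.0405%. Without Mir130a, an alternative added once the data were seen, the log2 ratio over the relatives was -2.50. With no minimum count 712 genes had a read in either library, against 357 detected and 254 at a minimum of 100 counts. No member's rank changed with these minimums, which add or remove only genes with low counts in a library. Each pool was sequenced once, so depth and pool cannot be told apart in a replicate ratio.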

Other observations

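Reads on the opposite strand of the members were nearly absent. Mir148a and Mir148b had 0 such reads in both libraries, and Mir152 had 0 in replicate 1 and 1 in replicate 2. In the whole table the opposite strand held 160572 reads in replicate 1 and 192195 in replicate 2, or 2.91% and 2.88% of gene reads. A count of 0 allows up to 0.560 CPM in replicate 1 and 0.462 CPM in replicate 2, the value of 3 counts, a 1-sided limit that is lower than the upper end of a 2-sided interval.

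Outside the HOX clusters, no microRNA gene within 1 Mb of a member was detected. Low counts were usual in the table, where 18.1% of all genes (357 of 1973) were detected. The 11 undetected genes within 1 Mb had at most 13 reads in a library, the highest being Mir8103, 213.3 kb from Mir152, with 8 and 13 reads. Mir6963, 65.2 kb from Mir148b, had 3 reads in replicate 1 and 0 in replicate 2.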
